A study of Mus musculus with 60 samples.

Results

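The genes described here are the collagens and collagen-processing enzymes of mouse fibroblasts: 31 genes comprising 7 fibrillar chains, 5 chains of the basement membrane zone, 6 other collagens, 4 lysyl oxidases, 7 hydroxylases and chaperones, and 2 genes of propeptide removal. They were chosen by symbol with earlier results of these data known, so member counts beside shares of all genes are descriptions. Each gene was read on its probe set with the highest mean intensity. Of the 31, 30 had a probe set that named 1 gene, out of 18194 genes so named on the array. Loxl2 lay only on probe sets that name several genes and is not described. Col15a1 did not pass the filter on dim probe sets (at least 3 arrays above their array's median), which left 29 genes in the tests among 12650 genes tested.

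Collagens are made as procollagen chains in the endoplasmic reticulum, where prolyl and lysyl hydroxylases modify them and the chaperone encoded by Serpinh1 binds the folded triple helix. After secretion, Bmp1 and its enhancer Pcolce remove the carboxy-terminal propeptide of the fibrillar chains, and lysyl oxidases then crosslink the fibrils. Fibroblasts are the main source of fibrillar collagen in connective tissue, and type IV collagen forms the sheet-like network of basement membranes.

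The study treated Balb/c 3T3, an embryonic mouse fibroblast cell line, with 4 carcinogens: 2-acetylaminofluorene (AAF), benzo(a)pyrene (BaP), 2,4-diaminotoluene (DAT) and 3-methylcholanthrene (MCA). In the literature-concentration set AAF was given at 25 µM, BaP at 0.5 µM, DAT at 50 µM and MCA at 2 µM, each for 24 h and for 120 h. In the IC20 set the 24 h doses were 10 µM for AAF, 1.5 µM for BaP, 700 µM for DAT and 20 µM for MCA, and the 120 h doses were 10 µM for AAF, 0.1 µM for BaP, 0.2 µM for DAT and 0.1 µM for MCA (IC20, by its name the concentration that causes 20% inhibition). Each set had its own controls at both times in 0.75% DMSO, the solvent, so that there were 20 groups of 3 arrays, 60 arrays in all. The labels do not say whether the 3 replicates were separate cultures, so p-values measure the spread between arrays, which may be technical. Values are single-colour intensities after quantile normalisation within each set, and differences are on the log2(intensity + 16) scale. The sets were scaled differently and were not tested against each other. Unless another test is named, a gene is called when the adjusted p of limma's moderated test (Benjamini-Hochberg over all 12650 genes) is under 0.05; "rose" and "fell" are used for called genes.

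Of 8 listed fibroblast markers, 7 were named on the array, and all 7 (Vim, Thy1, Pdgfra, Pdgfrb, S100a4, Fn1 and Dcn) lay above the array median on all 60 arrays. None of the 4 endothelial markers was above the median on as many as 3 arrays. The same held for 2 of 4 epithelial, 2 of 4 chondrocyte and 1 of 4 leukocyte markers. It also held for 1 of the 3 adipocyte and 1 of the 2 osteoblast markers named on the array. The rest of these lists were above it on 3 or more arrays. Acta2, the smooth muscle actin that activated fibroblasts also make, and Sox9, of the chondrocyte list, were the markers of other cell types that lay above the median on all 60 arrays. In these bulk samples fewer cells of a type and less RNA per cell cannot be told apart. The median residual SD was 0.11 log2 units in the literature-concentration set and 0.22 in the IC20 set, so smaller differences were detectable in the former.

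The promoters of 5 members are printed to show the sequence that lies before genes of this pathway. They are the 150 bases upstream of the annotated start, 5′ to 3′ on the gene's strand, from RefSeq on build GRCm38.p6, the C57BL/6J reference and not the BALB/c genome of the cells. Col1a2 and Col3a1 encode chains of the major fibrils, Col6a1 a chain of the beaded filaments, Col18a1 a basement membrane chain, and Serpinh1 the chaperone. Capitals mark matches to CCAAT or TATAA on either strand.
Col1a2, chr6:4505468-4505617, plus strand: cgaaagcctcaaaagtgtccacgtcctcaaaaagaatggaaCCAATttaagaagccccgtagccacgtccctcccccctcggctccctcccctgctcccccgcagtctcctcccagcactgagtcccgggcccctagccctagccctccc
Col3a1, chr1:45311388-45311537, plus strand: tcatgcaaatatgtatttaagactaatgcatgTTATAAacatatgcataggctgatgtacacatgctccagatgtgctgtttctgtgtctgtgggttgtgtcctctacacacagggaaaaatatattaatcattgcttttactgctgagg
Col6a1, chr10:76726045-76726194, minus strand: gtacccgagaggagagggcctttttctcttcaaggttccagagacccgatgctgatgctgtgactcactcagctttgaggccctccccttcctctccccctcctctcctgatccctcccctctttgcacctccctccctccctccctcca
Col18a1, chr10:77166531-77166680, minus strand: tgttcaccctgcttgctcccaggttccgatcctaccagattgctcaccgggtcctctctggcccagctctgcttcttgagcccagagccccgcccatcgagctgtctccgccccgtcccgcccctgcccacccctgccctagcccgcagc
Serpinh1, chr7:99353240-99353389, minus strand: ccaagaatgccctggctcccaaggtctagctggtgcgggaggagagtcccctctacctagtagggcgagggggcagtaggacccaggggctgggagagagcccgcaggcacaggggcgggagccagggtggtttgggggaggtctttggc
The Col1a2 match to CCAAT starts 109 bases upstream of the start, and the Col3a1 match to TATAA starts 117 bases upstream. The other printed stretches hold neither motif. In the 250 bases upstream of the start, with both strands searched, CCAAT was found in 9 of 24 promoters of 22 members (37.5%) and in 33.9% of all 32851 promoters in the table. GGGCGG, the core of the GC box, was found in 17 of the 24 (70.8%) and in 32.7% of all promoters. GCGTG, the core letters of the xenobiotic response element bound by the Ah receptor, was found in 10 of the 24 (41.7%) against 28.2% of all. TATAA was found in 2 of the 24 (8.33%) against 22.8%. Each match is a description of letters in this window, with no test.

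Several members are neighbours in the genome, and whether neighbours share control was not tested. Col4a1 (chr8:11198423-11312889) and Col4a2 (chr8:11312805-11449287) are transcribed away from each other, and their annotated start regions overlap by 85 bases. Col3a1 (chr1:45311538-45349706) lies beside Col5a2 (chr1:45374331-45503282). Col6a1, Col6a2 and Col18a1 lie within chr10:76595756-77166530.

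The first comparison asked how the members changed in solvent alone between 24 h and 120 h. In the literature-concentration set most collagen genes were higher at 120 h: 22 of the 29 members rose and 3 fell, where 29.3% of all genes rose and 28.5% fell. The median difference over the members was 0.71 log2 units, against 0.00 over all genes. All 7 fibrillar chains, 3 of 4 basement membrane chains, 5 of 6 other collagens, all 3 lysyl oxidases and both propeptide genes rose, whereas the 7 hydroxylases and chaperones split into 2 that rose, 2 that fell and 3 not called. Of the 29 members 18 rose and 5 fell in the IC20 set, against 17.8% and 22.4% of all genes, with a median of 0.58 over the members and -0.05 over all genes. Taking the replicate number as a block, which the arrays' shared deviations bear out for this IC20 comparison, 26 of the 29 members were called, 21 higher and 5 lower, where 52.1% of all genes were called.

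Among the fibrillar chains, Col1a1, the major chain of type I collagen, measured 3481, 3642 and 3151 on the 24 h arrays and 7986, 6534 and 5842 on the 120 h arrays of the literature-concentration set. The groups did not overlap, and the difference was 0.97 ± 0.11 (SE) log2 units with an adjusted p of 2.04e-08 by limma. Its partner Col1a2 measured 8755, 8308 and 7505 at 24 h and 10350, 10150 and 9506 at 120 h, a difference of 0.29 ± 0.07. Col1a2 was among the brightest probe sets of the array, at 58.3% to 94.8% of the array's maximum, and whether signal near the top of the scale narrowed this difference was not tested. Col3a1, the chain of type III collagen, rose from 4374, 4661 and 4384 to 8874, 8519 and 8332, a difference of 0.94 ± 0.05. Col5a1, a chain of the type V collagen that helps start type I fibrils, rose from 1715, 1448 and 1385 to 3526, 3035 and 2816, a difference of 1.04 ± 0.12. None of these pairs of groups overlapped. The remaining fibrillar chains rose by 0.60 (Col5a2), 0.29 (Col5a3) and 1.57 (Col11a1) log2 units.

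In the IC20 set Col1a1 measured 12300, 8235 and 7498 at 24 h and 17790, 16120 and 12460 at 120 h, a difference of 0.74 ± 0.22. The lowest 120 h array was just above the highest 24 h array, and the call was lost without the 24 h DMSO replicate 3 (adjusted p 0.0563 by limma). Col1a2 rose from 26450, 25040 and 22840 to 31150, 28700 and 27780, a difference of 0.24 ± 0.06. Col3a1 rose from 13430, 12570 and 11070 to 24070, 23820 and 20930, a difference of 0.89 ± 0.11, and Col11a1 rose by 0.99. Col5a1 rose from 4225, 3614 and 3857 to 9554, 8381 and 7954, a difference of 1.14 ± 0.11. Col5a3 was not called, at 0.33 (95% interval -0.02 to 0.69), but was with the replicate block (adjusted p 0.0242 by limma). With the deposited values and no normalisation the median over all genes in this comparison was 0.11 in place of -0.05, and 55.8% of all calls were higher in place of 44.3%.

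The type IV collagen chains had the largest differences of the basement membrane group. Col4a1 rose from 1107, 1106 and 951.6 to 4430, 3576 and 3168 in the literature-concentration set, a difference of 1.79 ± 0.11 log2 units or 3.47-fold (adjusted p 3.9e-14 by limma). Col4a2, the chain that shares its promoter region, rose from 1356, 1250 and 1197 to 4346, 3718 and 3512, a difference of 1.59 ± 0.07. Neither pair of groups overlapped, and Col4a5, an alternative type IV chain, rose by 1.14. In the IC20 set Col4a1 rose from 6566, 5514 and 3683 to 15860, 19260 and 10490, a difference of 1.53 ± 0.29. Col4a2 rose there from 3751, 3119 and 2766 to 10780, 10180 and 7517, a difference of 1.55 ± 0.17, and Col4a5 rose by 1.19.

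Col18a1, whose product carries the endostatin fragment at its end, did not follow the type IV chains. It measured 178.2, 175.6 and 181 at 24 h and 187.3, 160.2 and 150.6 at 120 h in the literature-concentration set, overlapping groups with a difference of -0.10 ± 0.07. It fell in the IC20 set from 249.5, 248.2 and 235.2 to 203.2, 144.3 and 131.4, a difference of -0.59 ± 0.17. That call was lost with the deposited values (adjusted p 0.597 by limma) and with the mean of its probe sets (0.172), its other probe set giving 0.08. Col15a1, the remaining basement membrane member, was dim, with 26.4, 24.5 and 33.2 on the 24 h DMSO arrays of the literature-concentration set.

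Of the other collagens, Col6a1, a chain of the type VI collagen that lies around cells, rose from 1870, 1859 and 1996 to 4365, 4015 and 3992 in the literature-concentration set, a difference of 1.10 ± 0.06. The corresponding rise in the IC20 set was from 7524, 6277 and 5669 to 13600, 12960 and 10770, a difference of 0.94 ± 0.14. The other type VI chains rose by 0.84 and 0.76 (Col6a2) and by 1.34 and 1.02 (Col6a3) in the respective sets. Col16a1, a collagen with an interrupted triple helix, rose by 1.10 and 0.91. Col12a1, a fibril-associated collagen, fell by 0.24 in the literature-concentration set, a call lost in each of the 6 fits that left out 1 array (adjusted p 0.0522 to 0.0888 by limma), and by 1.10 in the IC20 set.

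Col8a1, a network-forming collagen, moved in opposite directions in the separately fitted sets. It measured 223.5, 197.2 and 163.5 at 24 h and 250, 248.7 and 261 at 120 h in the literature-concentration set, a rise of 0.36 ± 0.10 log2 units. Col8a1 in the IC20 set measured 647, 501.3 and 447 at 24 h and 230.2, 252.1 and 196.2 at 120 h, a fall of 1.17 on the log2 scale (SE 0.27). The groups did not overlap in either set, and the difference between the sets was not tested.

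The lysyl oxidases tested as members (Lox, Loxl1 and Loxl3) rose in both sets. Lox, which oxidises lysines of collagen and elastin, rose from 2763, 2566 and 2236 to 3531, 3902 and 3925 in the literature-concentration set, a difference of 0.59 ± 0.08. Lox rose in the IC20 set from 6143, 6490 and 6252 to 10600, 11160 and 11480, a difference of 0.81 ± 0.10. No array of 1 time lay within the range of the other. Its relatives rose by 1.28 and 1.10 (Loxl1) and by 0.78 and 0.63 (Loxl3) in the respective sets. The propeptide genes also rose in the literature-concentration set, Bmp1 by 0.85 and Pcolce by 0.71. Pcolce rose by 0.58 in the IC20 set and Bmp1, at 0.51, was not called (adjusted p 0.0549 by limma), but was with the replicate block (3.7e-05).

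The genes that act on the chains inside the cell changed less uniformly. Serpinh1 measured 4336, 4261 and 3642 at 24 h and 5057, 4384 and 3884 at 120 h in the literature-concentration set, overlapping groups with a difference of 0.12 (95% interval -0.05 to 0.29). Serpinh1 in the IC20 set measured 11660, 11030 and 10910 and then 12070, 13090 and 12830, a difference of 0.18 that was not called although the arrays did not overlap. P4ha1, a catalytic subunit of prolyl 4-hydroxylase, measured 876.2, 794.3 and 752.3 at 24 h and 751.9, 753.7 and 726.4 at 120 h, a difference of -0.11. P4ha1 in the IC20 set measured 1373, 1247 and 1330 and then 1294, 1450 and 1394, a difference of 0.07. Neither difference was called, and the groups overlapped in both sets. P4ha2, an alternative subunit, fell by 0.41 and by 0.49 in the respective sets. P4ha3 fell by 0.83 in the IC20 set and was not called in the literature-concentration set, at 0.20.

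The lysyl hydroxylases also differed among themselves. Plod2, which hydroxylates lysines of the telopeptides, measured 372.4, 342.7 and 326 at 24 h and 303.6, 299.9 and 289.1 at 120 h in the literature-concentration set, a difference of -0.21 ± 0.08. That call was lost without the 24 h DMSO replicate 1 (adjusted p 0.104 by limma), without the 120 h DMSO replicate 3 (0.0615) and with the mean of its probe sets (0.103). Plod2 in the IC20 set measured 1304, 1080 and 908.8 and then 1174, 1379 and 962.5, overlapping groups with a difference of 0.09. Plod1, which acts on the helix, rose by 0.56 and 0.41; the second call was lost without the 24 h DMSO replicate 2 (0.0637). Plod3 rose by 0.33 in the literature-concentration set and was not called in the IC20 set at the same 0.33, where the replicate block called it (adjusted p 0.00148 by limma).

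Beyond the members, 52 other genes of collagen assembly, secretion and binding were listed and 31 of them tested. In the literature-concentration set 14 rose and 5 fell, where 29.3% and 28.5% of all genes did. The called genes were led by Col27a1, a fibrillar chain (2.09), Mrc2, a receptor that takes up collagen (1.79), Ddr1, a collagen receptor kinase (1.10), and Loxl4, a lysyl oxidase (-0.9995). Of the 31 tested, 12 rose and 4 fell in the IC20 set, where 17.8% and 22.4% of all genes did. The called genes there were led by Mrc2 (1.66), Col22a1 (-1.55), Col27a1 (1.50) and Ddr1 (1.42). All 8 genes of the cell division list fell in both sets, with medians of -2.22 and -1.60. Mki67, a protein of dividing cells, measured 2161, 1982 and 1744 at 24 h and 379.2, 362.7 and 338.9 at 120 h in the literature-concentration set. Acta2 rose there from 1991, 1907 and 2263 to 6570, 6471 and 6499, and in the IC20 set it fell from 10870, 9671 and 10560 to 8836, 9359 and 8775. The other 3 of the 4 smooth muscle markers were above the array median on fewer than 3 arrays. The summed level of the 7 fibroblast markers was higher at 120 h in both sets without overlap. It went from 23077.5-25132.1 to 32142.3-32956.4 in the literature-concentration set and from 77633.3-81669.0 to 103938.6-106721.7 in the IC20 set. The sum of the 4 epithelial markers went from 162.5-241.7 to 259.9-278.5 in the literature-concentration set and overlapped between the times in the IC20 set. Of 4 listed adipocyte markers 3 were named on the array, and their summed level lay between 171.0 and 194.9 at 24 h and between 14.4 and 23.0 at 120 h in the IC20 set, against 62.7 to 92.0 and 47.6 to 55.5 in the literature-concentration set. The ratio of 3′ to 5′ actin probe sets, a sign of RNA integrity, was 0.29 ± 0.07 log2 units (SD, n = 3) at 24 h and 0.54 ± 0.12 at 120 h in the IC20 set, without overlap, and 0.29 ± 0.04 and 0.31 ± 0.02 in the other set, with overlap. For Gapdh it was -0.32 ± 0.04 and -0.46 ± 0.08 in the IC20 set and -0.28 ± 0.03 and -0.18 ± 0.02 in the other. The Gapdh ratios of the times did not overlap in either set and moved in opposite directions. The part of cell division, of cells with these markers or of RNA integrity in the collagen changes was not tested.

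**Figure D1:**
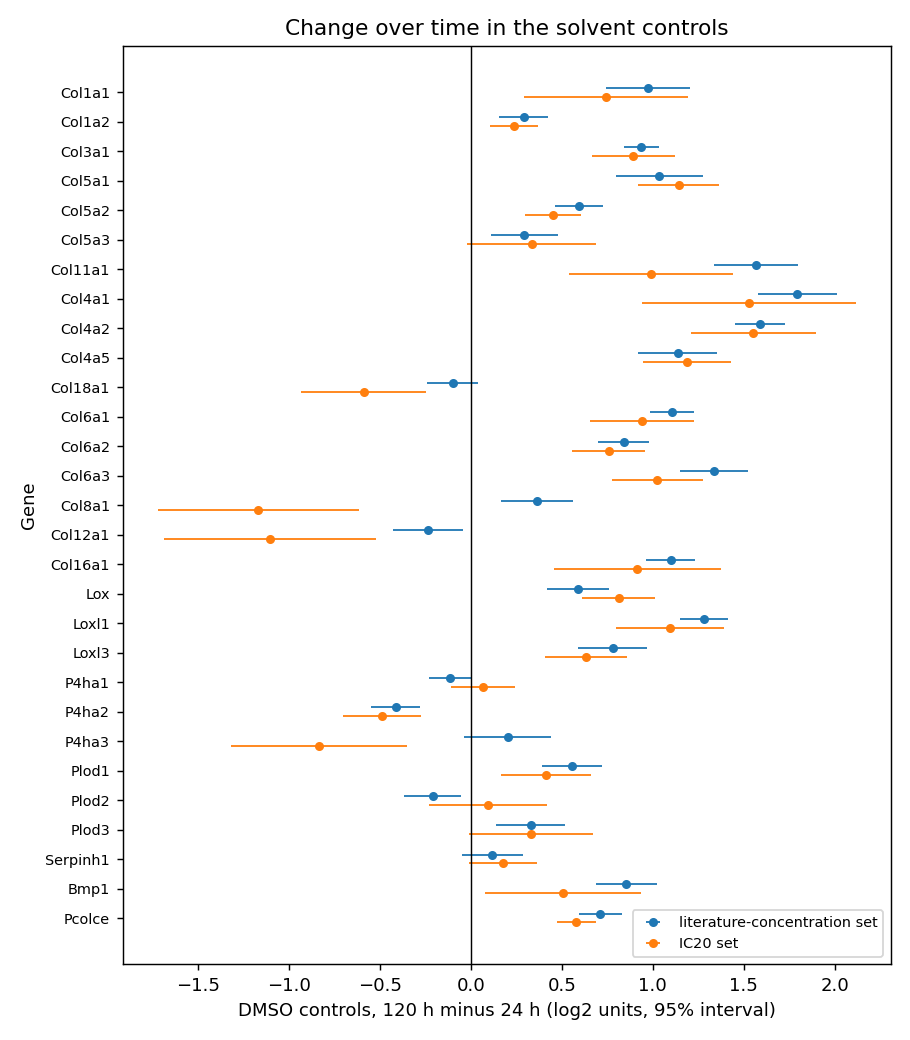
Differences between 120 h and 24 h in the DMSO controls for the 29 tested members (horizontal axis, log2 units; bars are 95% intervals; vertical axis, gene), in the literature-concentration set and the IC20 set, 3 arrays per group. Most collagens lie to the right of 0 in both sets, with Col4a1 at 1.79 and 1.53, whereas Col8a1 lies at 0.36 and -1.17.

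The treatments were then compared with DMSO of the same set and time. These comparisons share controls: all treatments of a set and time use the same 3 DMSO arrays, and those of 120 h are also the later arrays of the comparison over time, so the values of different comparisons are given side by side and are not independent. Per treatment, array values are given for up to 3 called members with the largest differences and no overlap between the groups. The lack of overlap in those genes was thus a condition of the choice. At 24 h in the literature-concentration set few members were called. BaP at 0.5 µM had 1 member higher and 8 lower, where 4.51% of all genes rose and 4.88% fell. The lower members were 4 of the 7 fibrillar chains, Col4a2, Col6a3, P4ha1 and Plod2, and the higher one was Col18a1. The replicate block, borne out for BaP at 24 h, called 11 members, where it called 16.6% of all genes, and added Col4a1 (-0.24) and Col16a1 (-0.20). Acta2 also fell, from 1991, 1907 and 2263 to 1504, 1739 and 1642.

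Col11a1, a minor fibrillar chain, measured 60.3, 51.9 and 63.3 with BaP and 95.8, 104.2 and 121.5 with DMSO at 24 h, a difference of -0.72 ± 0.11 (adjusted p 5.02e-05 by limma). Col5a3 measured 67.0, 68.2 and 65.6 against 110.0, 111.1 and 130.6, a difference of -0.68 ± 0.09. P4ha1 measured 590.8, 565.2 and 577.6 against 876.2, 794.3 and 752.3, a difference of -0.47 ± 0.06. In all 3 genes every treated array lay below every control array, as the choice of genes required. The other called differences were -0.42 (Col6a3), -0.36 (Plod2), -0.32 (Col5a2), -0.24 (Col4a2), -0.18 (Col3a1) and 0.30 (Col18a1). Calls for Col4a2 and Col3a1 were lost in some fits without 1 array: Col4a2 without BaP replicate 1 (0.0507) or 3 (0.101) or DMSO replicate 1 (0.0929), and Col3a1 without BaP replicate 3 (0.065) or DMSO replicate 2 (0.0867), as adjusted p by limma. Of the 31 other pathway genes 6 fell, where 4.88% of all genes did. The 6 were led by Col22a1 (-0.44), Col27a1 (-0.41), Creb3l1 (-0.40) and Sparc (-0.25). Of the 8 division genes Top2a rose, by 0.39.

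AAF at 25 µM for 24 h had 4 members higher and 1 lower, where 0.609% of all genes rose and 0.3% fell. The 3 type VI chains and Col3a1 rose. Col8a1 measured 136.4, 148.0 and 123.5 against 223.5, 197.2 and 163.5 in DMSO, a difference of -0.46 ± 0.10. Col6a3 measured 2334, 2115 and 2242 against 1729, 1676 and 1567, a difference of 0.42 ± 0.09, and Col6a2 measured 2076, 1601 and 1818 against 1376, 1397 and 1440, a difference of 0.37 ± 0.07. None of these groups overlapped, as the choice of genes required. Col6a1 rose by 0.36 and Col3a1 by 0.22. Col27a1, at 0.45, was the single other pathway gene called. These counts depended on single arrays: of the 5 calls, 0 were left without AAF replicate 1, 2 without AAF replicate 3, 1 without DMSO replicate 1 and 3 without DMSO replicate 2. With the replicate number as a block, borne out for this comparison, 12 members were called, 11 of them higher, where 5.52% of all genes were called; among them were Col4a1 (0.38) and Col1a1 (0.30). The summed level of the 4 smooth muscle markers, nearly all Acta2, lay between 2294.7 and 2427.1 with AAF and between 1944.0 and 2286.0 with DMSO. That of the 7 fibroblast markers lay between 25247.6 and 27375.4 with AAF and between 23077.5 and 25132.1 with DMSO. The part of either was not tested.

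MCA at 2 µM for 24 h had 2 members higher and 1 lower, where 1.08% of all genes rose and 1.12% fell. Col6a2 measured 1889, 1811 and 1827 against 1376, 1397 and 1440, a difference of 0.39 ± 0.07, and Col6a1 measured 2474, 2342 and 2665 against 1870, 1859 and 1996, a difference of 0.38 ± 0.06. Col11a1 measured 81.4, 81.2 and 67.2 against 95.8, 104.2 and 121.5, a difference of -0.41 ± 0.11. The groups did not overlap in these genes, but the adjusted p of Col11a1 was 0.0495 by limma and went above 0.05 in 5 of the 6 fits without 1 array (all but that without DMSO replicate 1), reaching 0.323 without DMSO replicate 3. Acta2 fell with MCA at this time, to 1779, 1613 and 1246. DAT at 50 µM for 24 h had 0 members called by limma, where 0.174% of all genes were called and 7 members had an unadjusted p under 0.05. With the replicate block, borne out for DAT at 24 h, Col3a1 (0.16) and Col6a2 (0.22) were called higher and P4ha1 (-0.19) lower, where 2.57% of all genes were called.

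At 120 h in the literature-concentration set most of the members called with BaP, DAT or MCA were lower. Of the 17 collagens tested, 12 fell with BaP, 9 with DAT and 15 with MCA, and 1, Col18a1, rose with each. With 0.5 µM BaP, 19 of the 29 members fell and 2 rose, where 12.9% of all genes fell and 13.8% rose, and the median over the members was -0.28 against -0.01 over all genes. With 50 µM DAT, 14 fell and 1 rose, where 12% of all genes fell and 11.7% rose, and the median was -0.21 against -0.02. With 2 µM MCA, 20 fell and 1 rose, where 20.2% fell and 18.8% rose, and the median was -0.46 against -0.02. With 25 µM AAF 1 member rose and none fell, where 0.324% of all genes rose and 0.0316% fell. The replicate block, borne out for BaP and MCA at 120 h, called 24 members with BaP, where 35.4% of all genes were called, and 22 with MCA, where 47.2% were. It added Col1a2, Col4a5 and P4ha3 with BaP and Plod3 with MCA.

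**Figure D2:**
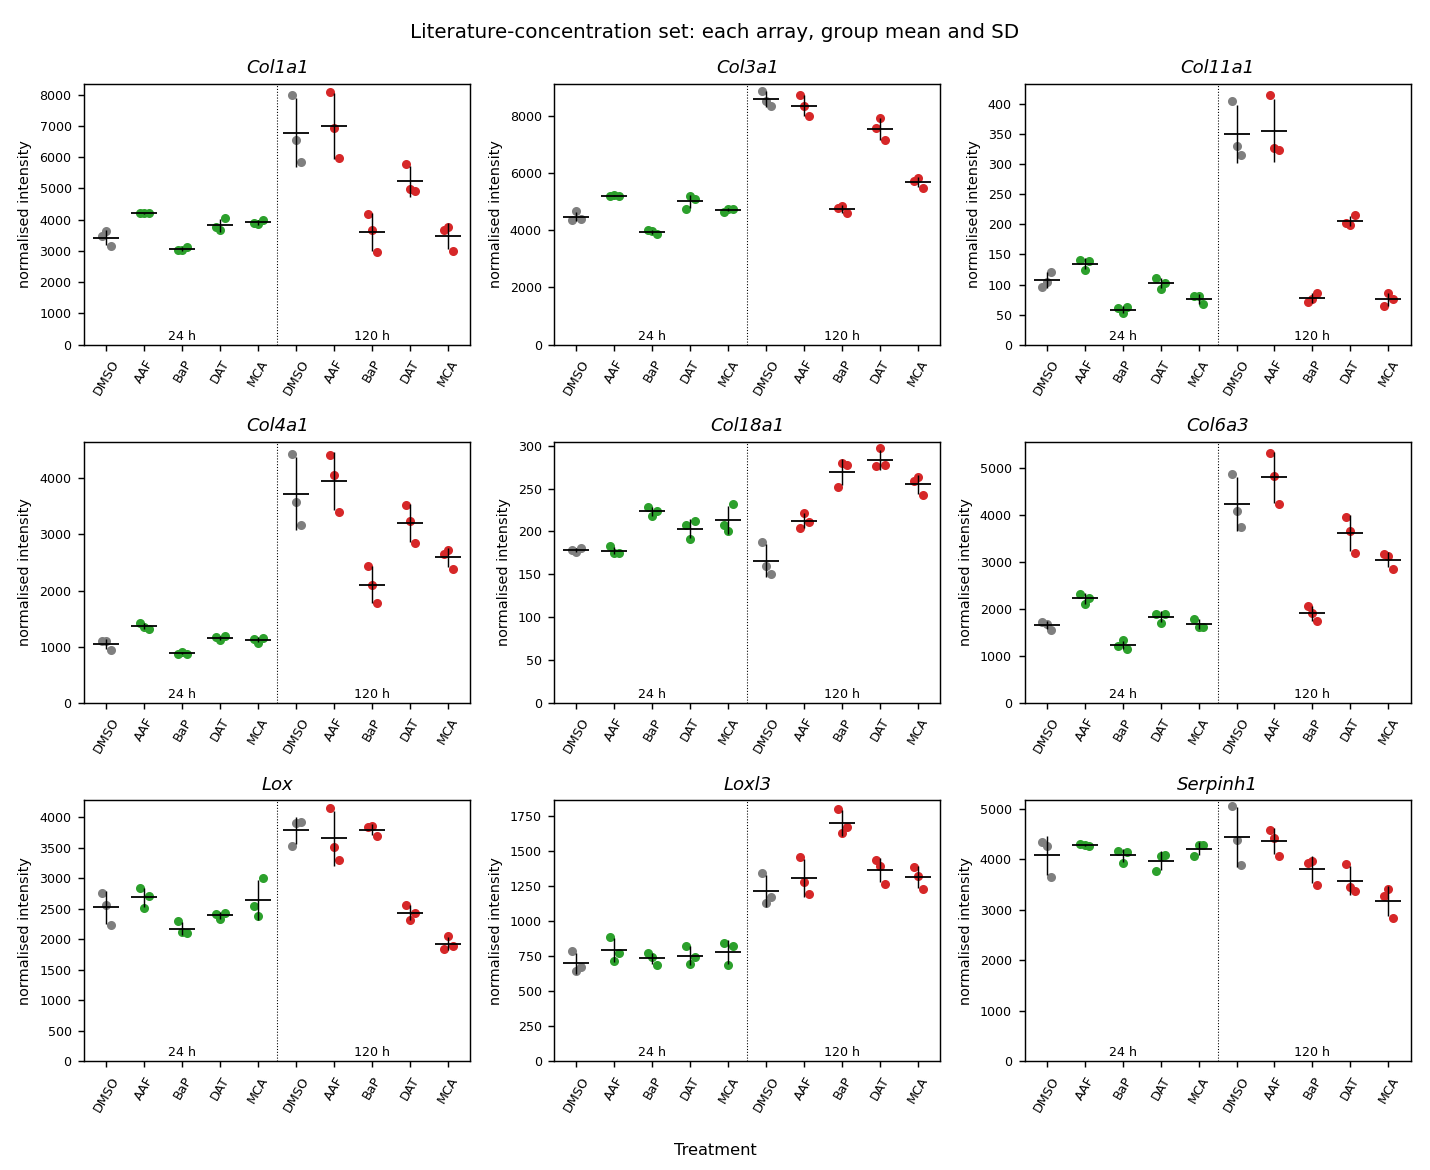
Normalised intensity (vertical axes, linear, from 0) of 9 members on each array of the literature-concentration set by treatment (horizontal axes; grey DMSO, green treated for 24 h, red treated for 120 h), with the group mean and SD of 3 arrays. Col11a1 at 120 h lies between 315 and 405 with DMSO, between 70.7 and 86.6 with BaP and between 63.5 and 86.5 with MCA, whereas Col18a1 is higher with BaP, DAT and MCA than with DMSO.

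Of the fibrillar chains 6 of 7 fell with BaP, 6 of 7 with DAT and all 7 with MCA. Col11a1 had the largest difference among the members called with BaP and with MCA. Its probe set was dim, at 0.19% to 3.72% of the array's maximum, though above the array median on all 60 arrays. At 120 h Col11a1 measured 404.9, 329.4 and 315.1 with DMSO, 70.7, 75.4 and 86.6 with BaP, 201.5, 199.3 and 215.6 with DAT and 63.5, 86.5 and 75.5 with MCA. Every treated array was below every DMSO array, and the differences were -1.96 ± 0.11, -0.72 ± 0.11 and -2.004 ± 0.112 log2 units with BaP, DAT and MCA (adjusted p 3.58e-13, 2.18e-05 and 1.28e-13 by limma).

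Col5a2, a type V chain, measured 7035, 6662 and 6570 with DMSO and 2804, 3207 and 2763 with MCA, a difference of -1.21 ± 0.06. It fell by 0.89 with BaP and by 0.45 with DAT. Col5a3 measured 159.0, 133.4 and 149.5 with DMSO and 56.0, 65.7 and 66.5 with BaP, a difference of -1.05 ± 0.09, and fell by 0.48 with DAT and by 0.65 with MCA. The treated and control arrays of these genes did not overlap. Col1a1 fell by 0.91 with BaP, by 0.37 with DAT and by 0.96 with MCA. Its call with DAT was lost without DMSO replicate 1 (adjusted p 0.144 by limma) or DAT replicates 2 (0.0624) or 3 (0.0638), and its second probe set gave -0.10 there. Col1a2 fell by 0.37 with MCA and was not called with BaP (-0.17) or DAT (-0.09); with the replicate block it was with BaP (adjusted p 0.00226 by limma).

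Col3a1 fell by 0.85 with BaP, by 0.18 with DAT and by 0.59 with MCA. Col5a1 fell by 0.45, by 0.41 and by 0.85 with the same agents; the call with DAT was lost without DMSO replicate 1 (0.075) or DAT replicate 3 (0.0621).

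The basement membrane chains did not move as one. Col4a1 fell by 0.82 with BaP and by 0.51 with MCA and was not called with DAT (-0.21). Col4a2 fell with all 3, by 0.73, 0.34 and 0.55 with BaP, DAT and MCA. Col4a5 fell with MCA by 0.46 and measured -0.21 with both BaP and DAT, not called, though it was with BaP under the replicate block (adjusted p 0.0342 by limma). Col18a1 rose with each: it measured 187.3, 160.2 and 150.6 with DMSO, 252.1, 279.3 and 277.0 with BaP, 276.8, 296.8 and 277.1 with DAT and 258.4, 263.6 and 242.6 with MCA. The groups did not overlap, and the differences were 0.65 ± 0.07, 0.72 ± 0.07 and 0.58 ± 0.07. With 25 µM AAF Col18a1 measured 204.6, 221.8 and 211.0, a difference of 0.33 ± 0.07, the single member called there. That AAF call was lost without AAF replicate 2 (adjusted p 0.151 by limma) or 3 (0.127) and without DMSO replicate 2 (0.155) or 3 (0.21), and 2 members were called without DMSO replicate 1. It was also lost with the deposited values (0.23). With the replicate block, which AAF at 120 h bears out, Col16a1 was called as well (0.24), where 0.996% of all genes were called.

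Among the other collagens, Col6a3 measured 4874, 4086 and 3754 with DMSO and 2059, 1920 and 1752 with BaP, a difference of -1.14 ± 0.09 with no overlap. It fell by 0.46 with MCA and was not called with DAT (-0.22). Col6a1 fell by 0.19, 0.17 and 0.24 with BaP, DAT and MCA. Its call with BaP was lost without BaP replicate 2 (0.101) or DMSO replicate 1 (0.124), and its call with DAT in 5 of 6 fits that left out 1 array, all but that without DMSO replicate 3 (0.0513 to 0.194, adjusted p by limma). Col6a2 fell by 0.48 with BaP and by 0.22 with MCA, and Col16a1 by 0.48 and by 0.22; both MCA calls were lost without DMSO replicate 1 (0.0917 and 0.155). Col8a1 fell by 0.33 with DAT, a call lost without DAT replicate 1 (0.0716), and by 0.84 with MCA; with BaP it measured 0.15, not called. A second, dim Col8a1 probe set gave -0.05, -0.06 and 0.01 with BaP, DAT and MCA. Col12a1 was not called in any of the 3.

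The lysyl oxidases differed from each other. Lox measured 3531, 3902 and 3925 with DMSO, 2558, 2315 and 2432 with DAT and 1841, 2048 and 1891 with MCA at 120 h. The treated arrays lay below all control arrays, with differences of -0.63 ± 0.08 and -0.97 ± 0.08. With BaP Lox measured 3835, 3855 and 3695, within the control range, a difference of 0.00 ± 0.08. Loxl1 fell by 0.28, 0.29 and 0.64 with BaP, DAT and MCA. Loxl3 rose with BaP, from 1341, 1126 and 1173 to 1802, 1626 and 1670 or by 0.48 ± 0.09, and was not called with DAT (0.17) or MCA (0.11). The dose of each agent differed, so the agents were not tested against each other.

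Of the hydroxylases and chaperones, 4 of 7 fell with BaP, 2 of 7 with DAT and 2 of 7 with MCA. Serpinh1 measured 5057, 4384 and 3884 with DMSO, 3938, 3975 and 3495 with BaP, 3902, 3463 and 3373 with DAT and 3277, 3411 and 2838 with MCA. It fell by 0.22, 0.30 and 0.48, and the BaP and DAT arrays overlapped the lowest DMSO array. The BaP call (adjusted p 0.0496 by limma) was lost in 5 of 6 fits without 1 array, all but that without DMSO replicate 3, and the DAT call without DMSO replicate 1 (0.0795). Plod1 fell by 0.36, 0.33 and 0.51 with BaP, DAT and MCA. With BaP P4ha1 fell by 0.26 and Plod2 by 0.21, the latter call lost in 5 of 6 fits, all but that without BaP replicate 1 (0.0562 to 0.172). P4ha2, P4ha3 and Plod3 were not called with any of the 3; with the replicate block P4ha3 was with BaP (-0.28, adjusted p 0.0413 by limma) and Plod3 with MCA (-0.14, 0.0294). Bmp1 fell by 0.48, 0.23 and 0.46; the DAT call was lost without any 1 of the DMSO arrays or without DAT replicate 1 (0.0773 to 0.265). Pcolce fell by 0.16 with BaP, with overlapping arrays, a call lost without BaP replicate 2 (0.142) or 3 (0.119) or DMSO replicate 1 (0.352), and measured -0.11 and -0.10 with DAT and MCA.

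**Figure D3:**
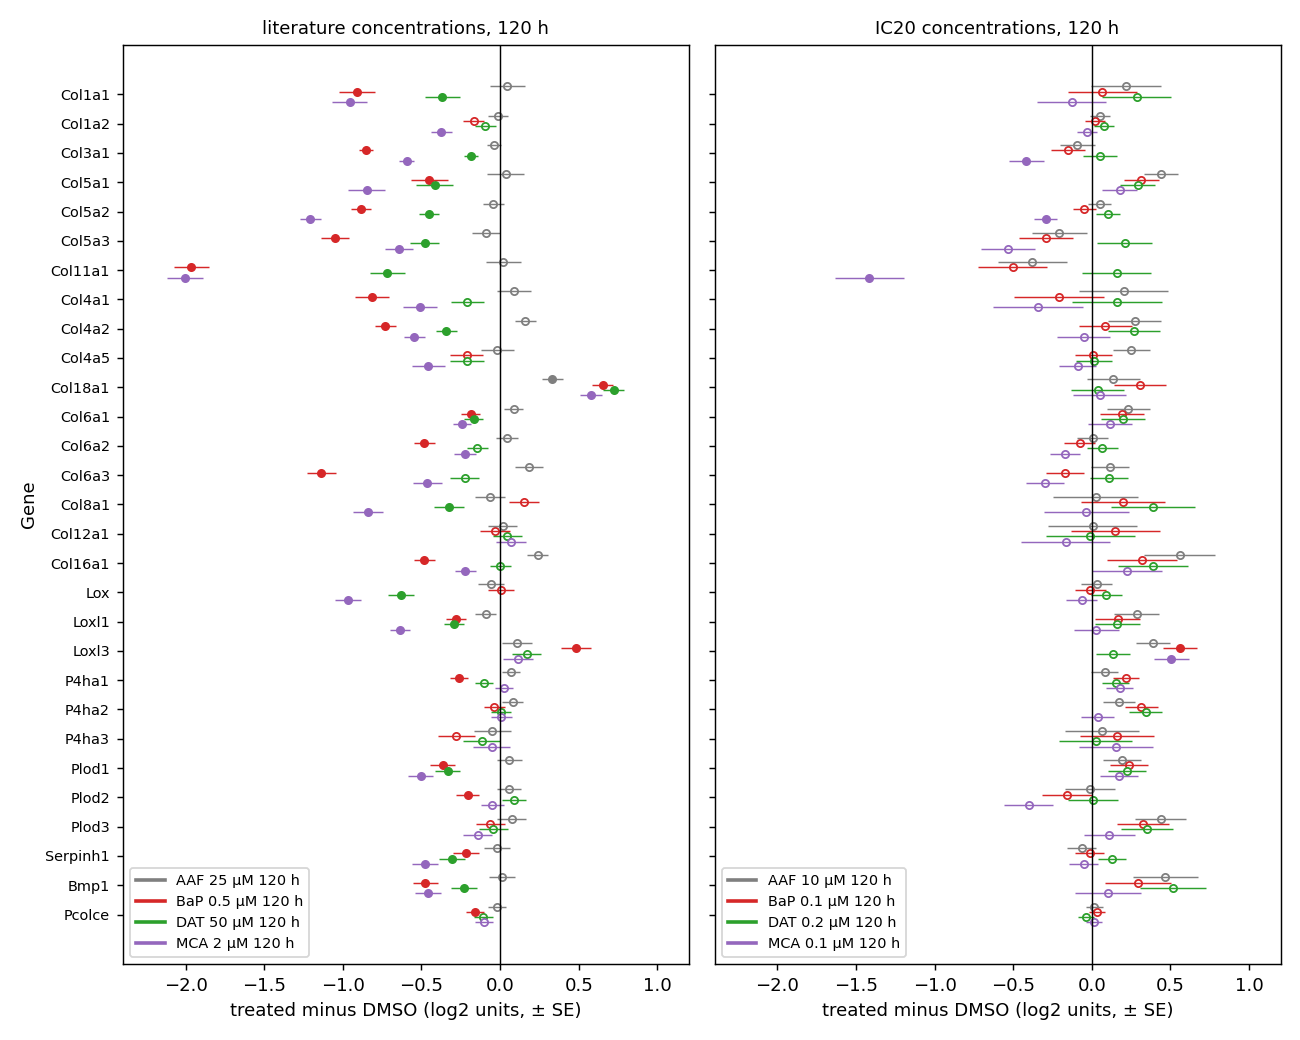
Treated minus DMSO differences at 120 h (horizontal axes, log2 units; bars are SE; vertical axis, gene) for AAF, BaP, DAT and MCA at the literature concentrations (left) and the IC20 concentrations (right), 3 arrays per group. Filled points were called and open points were not; most filled points on the left lie below 0, Col18a1 lies above 0, and on the right Loxl3 is called higher with BaP and MCA.

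Of the 31 other pathway genes, 2 rose and 6 fell with BaP at 120 h, where 13.8% and 12.9% of all genes did. The called genes were led by Col27a1 (-0.98), Col7a1, the anchoring fibril collagen (0.51), Sec23a, a coat protein of vesicles that leave the endoplasmic reticulum (-0.49), and Col22a1 (-0.48). With DAT 2 rose and 7 fell, where 11.7% and 12% of all genes did. The called genes were led by Loxl4 (0.45), Col27a1 (-0.44), Ddr2, a receptor for fibrillar collagen (-0.35), and Col7a1 (0.31). With MCA 3 rose and 11 fell, where 18.8% and 20.2% of all genes did. The called genes were led by Col27a1 (-0.92), Creb3l1, a transcription factor that acts on collagen genes (-0.70), P3h1, a prolyl 3-hydroxylase (-0.62), and Ddr2 (-0.57).

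Other measures moved with these treatments. All 8 division genes rose at 120 h, with medians of 0.86, 0.91 and 1.21 with BaP, DAT and MCA. Of all genes 13.8%, 11.7% and 18.8% rose there. Mki67 measured 379.2, 362.7 and 338.9 with DMSO, 863.9, 761.6 and 661.1 with BaP, 906.5, 662.5 and 623.2 with DAT and 774.2, 783.7 and 731.5 with MCA. Acta2 fell by 0.73, 0.98 and 2.05, and the summed level of the 4 smooth muscle markers ranged from 6506.7 to 6620.3 with DMSO, from 3911.4 to 4041.9 with BaP, from 3186.1 to 3430.9 with DAT and from 1390.4 to 1886.5 with MCA. The summed smooth muscle level also lay apart with AAF, from 4816.9 to 5808.9. The summed level of the 7 fibroblast markers ranged from 32142.3 to 32956.4 with DMSO. It was lower with BaP, from 28431.4 to 29854.3, and higher with MCA, from 33301.0 to 34629.1. With DAT (32391.2 to 33695.5) and AAF (32703.4 to 33944.5) it overlapped DMSO. The sum of the 4 epithelial markers was lower with BaP, from 197.8 to 244.4 against 259.9 to 278.5 with DMSO, and overlapped DMSO with the other agents. The ratio of 3′ to 5′ actin probe sets was 0.31 ± 0.02 log2 units (SD, n = 3) with DMSO, 0.44 ± 0.06 with BaP, 0.33 ± 0.03 with DAT and 0.30 ± 0.03 with MCA. With AAF it was 0.37 ± 0.03. All AAF and all BaP arrays lay above the DMSO arrays. For Gapdh the ratio was -0.18 ± 0.02 with DMSO, -0.13 ± 0.04 with AAF and -0.12 ± 0.04 with BaP. It was -0.20 ± 0.05 with DAT and -0.19 ± 0.01 with MCA, and each treated group overlapped DMSO. Their part in the collagen differences was not tested. Cyp1a1, the Ah receptor target, measured 12.8, 15.4 and 15.4 with DMSO, 2482, 2892 and 2686 with BaP, 406.9, 478.6 and 444.1 with DAT and 1422, 1488 and 1350 with MCA.

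Whether the response at 120 h differed from that at 24 h was tested as the difference of the differences. With 2 µM MCA 21 members had a lower response at 120 h and 1 a higher one, where 13.3% and 14.8% of all genes did, and the median over the members was -0.53 against -0.01. With 0.5 µM BaP 11 were lower and 2 higher, where 3.49% and 4.99% of all genes were, with a median of -0.22; the total was 8 without the 120 h BaP replicate 3. With 50 µM DAT 9 were lower and 1 higher, where 3.3% and 4.9% were, with a median of -0.27; the total was 6 without the 120 h DMSO replicate 1. Col11a1 differed by -1.24, -0.67 and -1.59 with BaP, DAT and MCA, and Col1a1 by -0.75, -0.53 and -1.15. Col18a1 differed by 0.35, 0.55 and 0.34 with the same agents. With 25 µM AAF 0 members were called by limma (0.0553% of all genes were), 5 had an unadjusted p under 0.05, and the median was -0.13.

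In the IC20 set fewer members were called, at doses that differ from those above and with a larger residual SD (0.22 against 0.11 log2 units). At 24 h, 1.5 µM BaP had 1 member higher and 3 lower, where 1.17% of all genes rose and 1.19% fell. Lox measured 4023, 4576 and 4788 against 6143, 6490 and 6252 with DMSO, a difference of -0.50 ± 0.10. Loxl3 measured 3021, 2628 and 2576 against 2145, 1712 and 2255, a difference of 0.43 ± 0.11, and P4ha1 measured 997.9, 934.7 and 991.2 against 1373, 1247 and 1330, a difference of -0.43 ± 0.08. The arrays did not overlap, a condition for giving these genes by array. Col5a2 fell by 0.28. The total was 2 without BaP replicate 1 or 2 or DMSO replicate 1 or 2. The fit with the replicate block, borne out here, called 7 members lower and 1 higher, where 10.6% of all genes were called, adding Col11a1 (-0.70), Col8a1 (-0.56), Col6a3 (-0.38) and Col4a2 (-0.29). Col22a1 was the other pathway gene called (-0.91), and Top2a the division gene called (0.36). The summed fibroblast marker level lay between 75161.0 and 75609.7 with BaP and between 77633.3 and 81669.0 with DMSO, and its part was not tested.

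DAT at 700 µM for 24 h had 1 member higher and 2 lower, where 4.17% of all genes rose and 3.65% fell, a share of the members near the background. Lox measured 4151, 3530 and 4843 against 6143, 6490 and 6252, a difference of -0.60 ± 0.10 (adjusted p 0.000206 by limma). Loxl3 measured 3149, 2453 and 3223 against 2145, 1712 and 2255, a difference of 0.53 ± 0.11, and P4ha1 measured 1082, 1143 and 932.5 against 1373, 1247 and 1330, a difference of -0.32 ± 0.08. No treated array lay within the control range, a condition for giving these genes by array. The P4ha1 call was lost without DMSO replicate 1 (0.0785) or 3 (0.0549) or DAT replicate 3 (0.13). Lox probe sets disagreed with DAT and with 1.5 µM BaP: a second bright one gave -0.74 and -0.64, and a dimmer one, above the array median on 31 of 60 arrays, gave 1.10 and 1.14. With the replicate block, borne out here, 3 members were higher and 6 lower, or 31% of the 29 where 22.9% of all genes were called, adding Col11a1 (-0.69), Plod2 (-0.47) and Col5a3 (-0.40) among others. Acta2 fell from 10870, 9671 and 10560 to 9288, 8042 and 8607, and its part was not tested. Col22a1 (-0.997) and P3h2 (-0.49) were the other pathway genes called.

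MCA at 20 µM for 24 h had 0 members called by limma, where 1.3% of all genes were called and 6 members had an unadjusted p under 0.05; 1 was called without MCA replicate 3. The replicate block, borne out here, gave 6 called members, where 7.71% of all genes were called, among them Col11a1 (-0.77), Col5a3 (-0.42), Lox (-0.28) and Loxl3 (0.29). AAF at 10 µM for 24 h had 0 called by limma (0.0237% of all genes) and 0 with an unadjusted p under 0.05. At 120 h it had 0 called (0.545% of all genes), 6 with an unadjusted p under 0.05, and 1 called without DMSO replicate 1. Under the replicate block, borne out for AAF at 120 h, 8 members were higher, led by Col16a1 (0.56), Bmp1 (0.47) and Col5a1 (0.44), where 8.54% of all genes were called; 3 of the 8 division genes were lower at that point without the block. The summed smooth muscle level lay between 7702.2 and 8617.4 with AAF and between 8844.7 and 9427.8 with DMSO. DAT at 0.2 µM for 120 h had 0 of 12650 genes called by limma (0%), and 4 members with an unadjusted p under 0.05. Its member differences ran from -0.04 (Pcolce) to 0.52 (Bmp1), and Cyp1a1 measured 29.2, 51.7 and 45.3 against 29.3, 41.8 and 54.3 with DMSO.

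At 120 h, 0.1 µM MCA had 1 member higher and 3 lower, where 1.31% of all genes rose and 1.16% fell. Col11a1 measured 174.5, 127.6 and 135.0 against 457.2, 417.3 and 367.5 with DMSO, a difference of -1.42 ± 0.22 (adjusted p 0.000173 by limma). Loxl3 measured 5040, 3942 and 4523 against 3186, 3025 and 3245, a difference of 0.51 ± 0.11 that was lost without MCA replicate 1 (0.0688). Col5a2 measured 16760, 15540 and 13820 against 19850, 19430 and 17160, a difference of -0.29 ± 0.07. These groups did not overlap, whereas those of Col3a1 (-0.42) did. The total was 2 without DMSO replicate 1 or 2 or MCA replicate 2 or 3, Col3a1 and Col5a2 being the calls lost. With the block, which MCA at 120 h bears out, 6 members were called, where 9.9% of all genes were, adding Col5a3 (-0.53) and Col6a3 (-0.30). With 0.1 µM BaP for 120 h 1 member rose and none fell, where 0.933% of all genes rose and 0.49% fell: Loxl3 measured 4868, 4549 and 4543 against 3186, 3025 and 3245, a difference of 0.56 ± 0.11 without overlap. P3h2, a prolyl 3-hydroxylase, was the other pathway gene called with BaP (0.81) and with MCA (0.58). Acta2 fell in both: it measured 8836, 9359 and 8775 with DMSO, 7686, 5984 and 6341 with MCA and 6787, 7340 and 7110 with BaP, groups that did not overlap the controls. The summed smooth muscle level lay between 8844.7 and 9427.8 with DMSO, between 6082.5 and 7759.1 with MCA and between 6885.6 and 7395.9 with BaP. The summed fibroblast marker level lay between 103938.6 and 106721.7 with DMSO and lower with MCA, between 97421.7 and 101036.6. With BaP it overlapped DMSO, between 101746.3 and 109584.2. The part of these levels in the member differences was not tested.

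BaP and MCA, both polycyclic aromatic hydrocarbons, were at the same dose and time at 0.1 µM and 120 h and could be compared directly. Of the 29 members 0 were called by limma between them, where 0.0791% of all genes were called, and 4 had an unadjusted p under 0.05. Col11a1 measured 318.6, 315.5 and 233.7 with BaP and 174.5, 127.6 and 135.0 with MCA, groups that did not overlap, and the difference of 0.92 (95% interval 0.46 to 1.37) had an adjusted p of 0.183. Loxl3 differed by 0.05 (95% interval -0.17 to 0.28). Under the replicate block, borne out here, Col11a1 and Col5a2 (0.24) were called higher with BaP, where 0.704% of all genes were called.

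**Figure D4:**
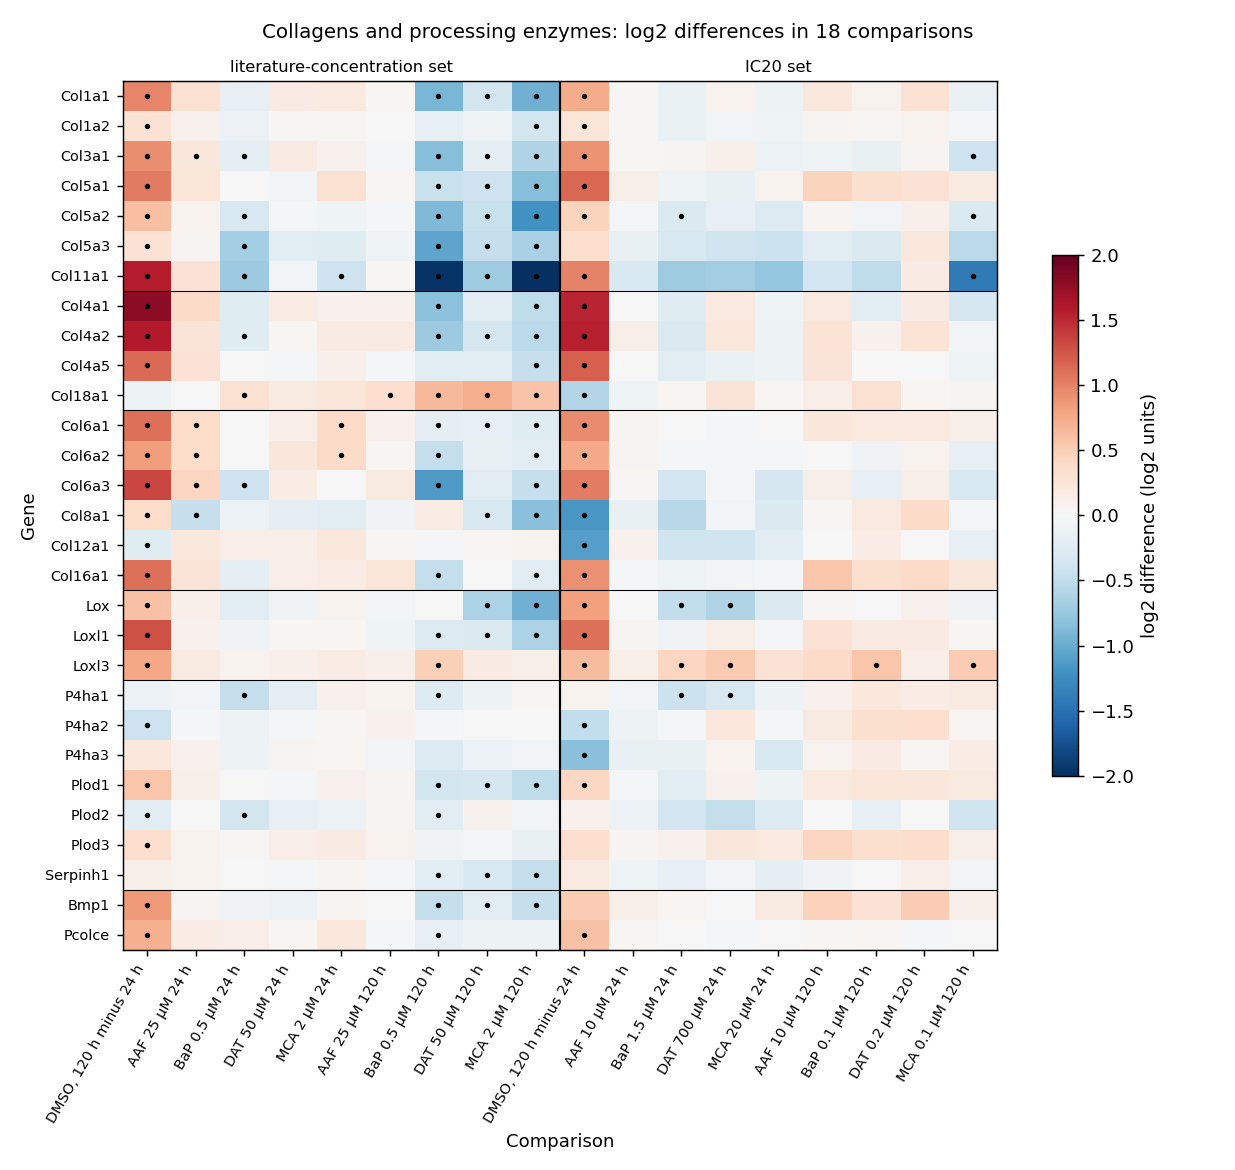
Log2 differences (colour, from -2 to 2) of the 29 tested members (rows, grouped by role) in 18 comparisons (columns): 120 h minus 24 h in DMSO, and each treatment minus DMSO of its set and time, 3 arrays per group. Dots mark called differences; the DMSO columns are mostly red, the 120 h columns of BaP, DAT and MCA at the literature concentrations mostly blue with Col18a1 red, and Loxl3 carries the dots of the 0.1 µM BaP column.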

How the data were processed

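RNA of 60 samples of Balb/c 3T3 cells was measured on single-colour arrays of 45101 probe sets. The deposited table holds the authors' linear intensity values; the submitters' processing notes name GCOS without a version, and how they were background-corrected, summarised and scaled is not given in the sources used here. On each array a trimmed mean was taken; it was 152.9 to 187.6 on the arrays of the literature-concentration set and 500.0 on those of the IC20 set, so each set was quantile-normalised and fitted on its own (residual SD 0.11 and 0.22). The number of arrays per group, 3, limits the precision.

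Probe sets were named from the platform annotation: 34958 named 1 gene, 932 several and 9211 none; 204 of the first kept their older symbol. Per gene the probe set with the highest mean was used, and kept if above its array's median on at least 3 of 60 arrays. Tests used limma 3.58.1 in R 4.3.3 on log2(intensity + 16), with 20 residual degrees of freedom per set, a trended prior, Benjamini-Hochberg adjustment over 12650 genes and a threshold of 0.05. The script was tested on simulated data.

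Named with values per array were 12 members in the comparison over time and, per treatment, up to 3 called members with the largest differences and no overlap; other called members are given by their difference. Per comparison up to 4 other pathway genes are named. Col8a1 over time, Col11a1, Col5a2, Serpinh1 and Loxl3 at 120 h were also given by array after their values were seen. The members and gene lists were chosen with earlier results of these data known, and the comparison of BaP with MCA at 0.1 µM was added after seeing the data.

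Arrays of the same replicate number deviated together (all 3 correlations over 0.1) in the comparisons where the text calls the block borne out, and the labels do not say what the number marks. The block was fitted over all groups of a set, including those whose correlations were lower. Alternatives were the deposited values without normalisation, quantile normalisation over all 60 arrays, a pseudocount of 1, no filter, the mean of a gene's probe sets, 1 fit of all arrays, the replicate block, and leaving out each array. Promoter sequences are from RefSeq on GRCm38.p6.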

Additional observations from a re-analysis of the deposited data

Results flagged for a closer look

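The difference between treated and DMSO arrays was not the same at 24 h and at 120 h for many collagen genes of the literature-concentration set. Each value below is the log2 difference at 120 h minus that at 24 h, tested as an interaction by limma with Benjamini-Hochberg adjustment over 12650 genes. All rest on groups of 3 arrays. With 0.5 µM BaP the called members were Col11a1 (-1.24), Col1a1 (-0.75), Col6a3 (-0.72), Col3a1 (-0.67), Col4a1 (-0.58), Col5a2 (-0.57), Col6a2 (-0.49), Col4a2 (-0.49), Bmp1 (-0.40), Plod1 (-0.38), Pcolce (-0.29), Col18a1 (0.35) and Loxl3 (0.41). With 50 µM DAT they were Col11a1 (-0.67), Lox (-0.56), Col1a1 (-0.53), Col5a2 (-0.43), Col4a2 (-0.38), Col6a2 (-0.37), Col3a1 (-0.35), Loxl1 (-0.33), Col6a1 (-0.31) and Col18a1 (0.55). With 2 µM MCA they were Col11a1 (-1.59), Col1a1 (-1.15), Col5a1 (-1.14), Col5a2 (-1.12), Lox (-1.03), Col4a2 (-0.71), Loxl1 (-0.67), Col3a1 (-0.67), Col6a1 (-0.62), Col8a1 (-0.62), Col6a2 (-0.61), Col4a1 (-0.60), Plod1 (-0.60), Col4a5 (-0.56), Serpinh1 (-0.53), Bmp1 (-0.51), Col6a3 (-0.48), Col1a2 (-0.40), Col5a3 (-0.40), Col16a1 (-0.37), Pcolce (-0.32) and Col18a1 (0.34). Division genes and Acta2 moved in the same comparisons, and their part in these values was not tested.

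Col8a1, the network-forming collagen, moved in opposite directions between 24 h and 120 h in the DMSO controls of the separately scaled sets. It rose by 0.36 log2 units in the literature-concentration set and changed by -1.17 in the IC20 set. Opposite directions and no overlap between the times in both sets were the rule that flagged it, so neither is further support. The gene had 3 probe sets, and that with the highest mean was read. The difference between the sets was not tested.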

How the results depend on the processing

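The alternatives moved the numbers of called members as follows, and where no construction of the alternative is named the cause was not tested. With 1 fit of all 60 arrays, in which both sets share an estimate of the spread, the totals were 0 for AAF 25 µM at 24 h and at 120 h, 5 for BaP 0.5 µM at 24 h, 8 for DAT 50 µM at 120 h, 2 for AAF 10 µM at 120 h, 2 for BaP 0.1 µM, 6 for DAT 700 µM, 2 for MCA 20 µM, 6 and 2 for the changes in response with BaP 0.5 µM and DAT 50 µM, and 1 for BaP against MCA at 0.1 µM. Over all genes, calls went from 115 to 12 and from 45 to 11 for AAF 25 µM. They went from 1188 to 370 for BaP 0.5 µM at 24 h and from 3004 to 1264 for DAT 50 µM at 120 h. Calls for the change in response went from 1072 to 363 (BaP) and 1037 to 332 (DAT). In the IC20 set they rose, from 69 to 367 for AAF at 120 h and from 180 to 611 for BaP 0.1 µM. They rose from 989 to 2096 for DAT 700 µM and from 164 to 584 for MCA 20 µM. For BaP against MCA they rose from 10 to 54. With the replicate block the totals were 12 and 2 for AAF 25 µM at 24 h and 120 h, 3 for DAT 50 µM at 24 h, 6 for MCA 2 µM at 24 h, 8 for AAF 10 µM at 120 h, 8 for BaP 1.5 µM, 6 for BaP 0.1 µM, 9 for DAT 700 µM, 4 for DAT 0.2 µM, 6 for MCA 20 µM, 2 and 1 for the changes in response with AAF 25 µM and 10 µM, and 2 for BaP against MCA. Not all 3 correlations were over 0.1 for MCA 2 µM at 24 h, BaP 0.1 µM and DAT 0.2 µM. The same held for DMSO over time in the literature-concentration set and for DAT 50 µM at 120 h. The lowest correlation was 0.06 for BaP 0.1 µM and 0.09 for DAT 0.2 µM, just under the cut. It was 0.11, just over it, for DMSO over time in the IC20 set. For MCA 2 µM at 24 h it was -0.18, and for DAT 50 µM at 120 h -0.31. The block removed none of the 180 calls. Calls over all genes rose with the block too, from 115 to 698 and from 45 to 126 for AAF 25 µM, from 22 to 325 for DAT 50 µM and from 279 to 643 for MCA 2 µM at 24 h, from 69 to 1080 for AAF 10 µM at 120 h, from 299 to 1345 for BaP 1.5 µM, from 180 to 1346 for BaP 0.1 µM, from 989 to 2894 for DAT 700 µM, from 0 to 216 for DAT 0.2 µM, from 1.3% to 7.71% of all genes for MCA 20 µM, from 7 to 119 and from 0 to 70 for the changes in response with AAF, and from 10 to 89 for BaP against MCA. With the deposited values the totals were 3 and 0 for AAF 25 µM at 24 h and 120 h, 2 for MCA 0.1 µM and 8 for the change in response with BaP 0.5 µM. Over all genes the calls in these comparisons went from 115 to 22, from 45 to 25, from 313 to 300 and from 1072 to 523. Without a filter, so with more genes tested, MCA 0.1 µM had 2, where calls over all genes went from 313 to 284. With the mean of a gene's probe sets the totals were 5 for MCA 2 µM at 24 h, 1 for AAF 10 µM at 24 h, 2 for BaP 1.5 µM and 1 for MCA 20 µM. With this mean, calls over all genes went from 279 to 243, from 3 to 4, from 299 to 177 and from 164 to 127. The Lox difference with BaP 1.5 µM became 0.0008 there, its dimmer probe set opposing the others. Totals over the fits that left out 1 array, which hold fewer samples, ranged from 0 to 5 (AAF 25 µM, 24 h), 0 to 2 (AAF 25 µM, 120 h), 0 to 1 (AAF 10 µM, 120 h), 2 to 4 (BaP 1.5 µM), 0 to 1 (MCA 20 µM), 2 to 4 (MCA 0.1 µM), 8 to 12 (change in response, BaP 0.5 µM) and 6 to 12 (change in response, DAT 50 µM).

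Of the 180 called differences of members, 29 lost their call with the deposited values, 17 with the mean of probe sets, 11 without a filter, 2 with quantile normalisation over all arrays, 0 with a pseudocount of 1, 53 with 1 fit of all arrays, and 42 in at least 1 fit without an array; 1, that of Lox, changed its sign. With the deposited values 63.7% of all calls were higher for BaP 1.5 µM, in place of 49.5%, and 77.3% for AAF 25 µM at 24 h, in place of 67.0%. The added 16 shrinks the differences of low members: with a pseudocount of 1, Col11a1 with 2 µM MCA measured -0.48 at 24 h and -2.21 at 120 h.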
